A study of Mus musculus with 4 samples.

Results

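Dividing cells of the mouse tail intervertebral disc were picked out by transcripts of the late cell cycle. A barcode was taken as a dividing cell if it had at least 500 detected genes and at least 1 UMI (a distinct captured transcript molecule) of at least 4 of 8 genes, namely Top2a, Mki67, Cdk1, Cenpf, Prc1, Ube2c, Birc5 and Tpx2. Barcodes with at least 3 of the 5 myeloid genes C1qa, C1qb, Lyz2, Tyrobp and Fcer1g were dropped, which removed 1 barcode that met the 8 gene rule. This left 79 dividing cells of 2785 barcodes with at least 500 detected genes, beside 2610 other non-myeloid cells and 96 barcodes dropped as myeloid. Injured round 2 gave 66 of the dividing cells and injured round 1 gave 9, while each of the 2 control libraries gave 2. Because the 8 genes chose the cells, their levels in those cells, and those of the genes that follow the same cycle, are given as a description with no test.

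The discs came from female wildtype C57BL/6 mice 12 weeks old. Injured discs (tail levels CC5/6 to CC9/10) had been punctured from both sides with a 30G needle and were collected 7 days later, and unpunctured control discs came from the more distal levels CC12/13 to CC16/17 of the same animals. The effects of tail level and of puncture therefore cannot be told apart. Discs of 6 mice, 30 per group, were pooled, without a statement of whether this holds for each round, and the cell suspensions were frozen, later thawed, and enriched for living cells by flow cytometry. There were 2 rounds with 1 control and 1 injured library each, so n = 2 libraries per group and the spread between animals was not measured.

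A cell that divides copies its DNA in S phase and then, through G2 and mitosis (M), condenses its chromosomes, attaches them to a spindle at the kinetochores and cleaves. Cyclins switch on the kinases that drive each step, CDK inhibitors hold those kinases back, and the anaphase promoting complex (APC/C) marks cyclins and other mitotic proteins for destruction. The annulus, the ringed wall of the disc, has a cartilage-like inner part rich in type II collagen and aggrecan and a fibroblast-rich outer part of type I collagen, and adult disc cells are known for dividing rarely. Of the 8 genes, Top2a untangles DNA strands, Mki67 coats mitotic chromosomes, Cdk1 is the kinase of mitotic entry, Cenpf is a kinetochore protein, Prc1 and Tpx2 organise the spindle, Ube2c feeds ubiquitin to the APC/C, and Birc5 (survivin) belongs to the chromosomal passenger complex.

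The promoters of 5 of these genes are shown because many late cell cycle genes are known to share short motifs, the CHR element (TTTGAA), which is bound by the DREAM and MuvB complexes, and the CCAAT box, which is bound by NF-Y. Each stretch runs from 150 bases before to 10 bases after the RefSeq transcription start (GRCm38.p6), 5′ to 3′ along the gene's own strand, and capitals mark TTTGAA or CCAAT on either strand, seen as TTCAAA or ATTGG where the motif lies on the other strand.
Ube2c, chr2:164769779-164769938, plus strand: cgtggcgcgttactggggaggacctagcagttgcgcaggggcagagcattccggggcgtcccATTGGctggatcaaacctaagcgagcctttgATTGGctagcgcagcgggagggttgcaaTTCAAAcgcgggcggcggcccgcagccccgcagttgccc
Top2a, chr11:99024180-99024339, minus strand: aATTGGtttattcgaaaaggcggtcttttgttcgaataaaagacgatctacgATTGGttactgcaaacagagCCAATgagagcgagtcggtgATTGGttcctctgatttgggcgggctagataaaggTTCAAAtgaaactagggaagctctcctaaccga
Cdk1, chr10:69352903-69353062, minus strand: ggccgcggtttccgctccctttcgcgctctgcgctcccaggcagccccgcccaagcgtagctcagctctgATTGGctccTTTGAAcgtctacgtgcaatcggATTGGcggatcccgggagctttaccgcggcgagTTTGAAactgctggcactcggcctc
Cenpf, chr1:189688077-189688236, minus strand: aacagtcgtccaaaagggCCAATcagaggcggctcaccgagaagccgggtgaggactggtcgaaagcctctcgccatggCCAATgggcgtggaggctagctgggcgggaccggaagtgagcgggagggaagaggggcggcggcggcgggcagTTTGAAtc
Birc5, chr11:117849087-117849246, plus strand: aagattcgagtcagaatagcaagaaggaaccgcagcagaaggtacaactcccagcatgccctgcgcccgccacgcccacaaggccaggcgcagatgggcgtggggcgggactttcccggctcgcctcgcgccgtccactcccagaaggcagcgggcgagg
Over the table's full windows of 300 bases (250 before to 50 after the start), 7 of the 8 genes were matched and 6 held both motifs, while Birc5 held neither. Ube2c and Top2a each held 6 CCAAT matches and Mki67 and Cdk1 held 3, with overlapping matches on opposite strands counted separately. Of 27025 promoters in the table, 18.1% held TTTGAA and 37.9% held CCAAT, and 7.12% held both. Among 47 matched genes of the 54 gene G2/M list, 32 (68.1%) held TTTGAA and 26 (55.3%) held both. In the S list, of which 31 of 43 genes were matched, 5 (16.1%) held TTTGAA, a share near that of all promoters, and 22 (71.0%) held CCAAT. A match describes the letters of a window and is not a measured binding site.

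The deposited matrices held 1114210 to 16972879 UMIs per library. The control matrix of round 1 listed only 444 barcodes of at least 502 UMIs while the other matrices listed every barcode, so the libraries were not filtered alike. Of those 444 barcodes, 147 were also present with at least 502 UMIs in injured round 1. Both dividing cells of control round 1 were such shared barcodes, with 794 and 1607 UMIs there and 556 and 1190 UMIs in injured round 1. Of the 9 dividing cells of injured round 1, 4 had a barcode that also held 762 to 1725 UMIs in control round 1, against 26104 to 53885 UMIs in their own library. The shares of dividing cells, the sums over the 8 genes in all non-myeloid cells and the tests between groups are given with and without the shared barcodes of control round 1.

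Dividing cells made up 4.34% of the non-myeloid cells of injured round 2 (66 of 1520, exact 95% interval 3.37 to 5.49%). The other injured library, of round 1, held 1.47% (9 of 613, 0.673 to 2.77%). The controls held 0.930% in round 1 (2 of 215, 0.113 to 3.32%) and 0.587% in round 2 (2 of 341, 0.0711 to 2.10%). Both injured libraries were above both control libraries, but the interval of injured round 1 overlapped those of both controls. Mean shares were 2.91 ± 2.03% in injured and 0.758 ± 0.243% in control libraries (SD, n = 2 each), a difference of 2.15 points (exact two-sided permutation p = 0.333, the smallest that 2 against 2 libraries can give). Without injured round 2 the difference was 0.710 points, and without the shared barcodes control round 1 held 0 of 175, which allows up to 1.71%. That removal takes cells from control round 1 alone. With the shared barcodes left out of both libraries of round 1, injured round 1 held 5 of 505 (0.990%, 0.322 to 2.30%) and the difference was 2.37 points (exact permutation p = 0.333), against 2.61 points when they were left out of the control alone. Such a limit for a count of 0 is 3 cells of the total here and below, and the exact 95% upper limit in this case was 2.09%. The intervals cover counting error only.

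Detecting 4 genes takes depth, and median UMIs per non-myeloid cell were 3702 and 4521 in the controls against 8397 and 5399.5 in the injured libraries of rounds 1 and 2. After every cell was thinned to 2000 UMIs, with shallower cells left out, 22 of 1345 cells of injured round 2 met the rule (1.64%, 1.03 to 2.47%) and 5 of 550 of injured round 1 (0.909%, 0.296 to 2.11%). In the controls, 0 of 148 and 0 of 286 thinned cells met it, which allows up to 2.03% and 1.05% (exact upper limits 2.46% and 1.28%). At 2000 UMIs the injured libraries were thus above 0 and the controls held none, with a difference of 1.27 points (exact permutation p = 0.333). None of the shared barcodes of control round 1 was deep enough to enter this comparison. At 4000 UMIs control round 2 held 1 of 194 (0.515%) and control round 1 0 of 94, against 5 of 493 and 39 of 1011 in the injured libraries of rounds 1 and 2, a difference of 2.18 points. At 1000 UMIs per cell the difference was 0.302 points (exact permutation p = 0.667), with 1 dividing cell of 189 in control round 1 and 2 of 603 in injured round 1. All 3 shallow control cells (794, 825 and 1607 UMIs) were below the 2000 UMI limit.

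**Figure D1:**
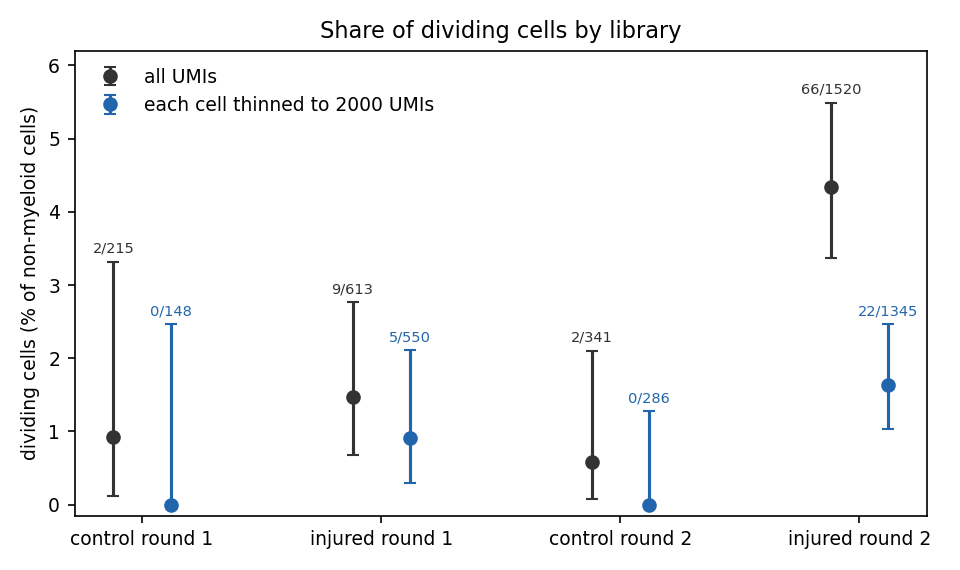
Dividing cells as a percentage of non-myeloid cells in each library, before (dark points) and after (blue points) each cell was thinned to 2000 UMIs. Bars are exact 95% binomial intervals and labels give dividing cells over cells. Injured round 2 is highest on both scales, at 4.34% and 1.64%.

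The same genes can be read without a cut per cell. Summed over all non-myeloid cells, the 8 genes together gave 57.8 counts per 1000000 UMIs (CPM) in control round 1 and 26.8 in control round 2, against 92.3 in injured round 1 and 189 in injured round 2. Of those UMIs, 82.6% lay in dividing cells in injured round 2 and 63.9% in injured round 1, against 25.5% and 34.7% for the controls of rounds 1 and 2. Without the shared barcodes control round 1 held 0 dividing cells of 175, so the UMIs behind its 25.5% all lay in shared barcodes. The sum over the 8 genes was then 36.2 CPM there (24.9 to 50.9). Prc1 was at 4.20 and 2.19 CPM in the controls and at 12.4 and 22.5 CPM in the injured libraries of rounds 1 and 2. Cdk1 was at 2.10 and 0 CPM in the controls and at 4.63 and 19.4 CPM in the injured libraries. In control round 1 without the shared barcodes, Cdk1 was at 0 CPM and Prc1 at 3.30 CPM. Mki67 was the 1 gene of the 8 whose groups overlapped, with 5.25 and 3.28 CPM in controls and 4.94 and 29.8 CPM in injured libraries. The other 7 were higher in both injured than in both control libraries, as were 15.7% of the 11517 genes tested. Without the shared barcodes Mki67 in control round 1 was at 2.20 CPM, from 2 UMIs, below both injured libraries. Of the 32 tested G2/M list genes other than rule genes this held for 13, and of the 38 tested S list genes for 9.

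The sums run over all non-myeloid cells, dividing or not, and the rule used no contrast between groups, but the same UMIs stand behind the shares of dividing cells, so these fits are no independent support for them. In edgeR's quasi-likelihood test, fitted log2 fold changes of the 8 genes ran from 1.02 (Tpx2) to 4.05 (Cdk1), with a median of 2.17 against -0.02 over all genes. None passed an adjusted p of 0.05, as for all 11517 genes (0 called, 0% of those tested, 871 at an unadjusted p under 0.05). For Prc1 edgeR gave 2.65 ± 0.65 (log2, SE) at an adjusted p of 0.345. Control and injured discs came from the same animals, and edgeR called 623 genes (5.41%) once round entered the fit as a block, among them 4 of the 8: Cdk1 (adjusted p = 0.0179), Cenpf (0.0239), Prc1 (0.00744) and Birc5 (0.00730). DESeq2 called 133 genes (1.15%) and none of the 8, and without the shared barcodes edgeR called no gene. Without a filter on low counts edgeR called 306 genes (1.47%), 5 of the 8 among them. Leaving out a library leaves 1 in its group, which is then assumed to vary like the 2 of the other group. Without injured round 1 edgeR called 207 genes (1.93%), 5 of the 8 among them (Mki67, Cdk1, Cenpf, Prc1 and Birc5), and without control round 1 it called 165 (1.26%), 3 of the 8 among them (Cdk1, Prc1 and Ube2c). None of the 8 was among the 91 genes (0.703%) called without control round 2, nor, of the 6 tested, among the 56 (0.527%) called without injured round 2. In bulk sums of this kind, more dividing cells and more RNA per dividing cell cannot be told apart.

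The dividing cells of injured round 2 carried the matrix genes of outer annulus or fibroblast cells. Clusters were made with all 139 cell cycle and rule genes left out, and 62 of the 66 fell into 1 cluster, led by Cthrc1, Postn and Aspn, in which 12 of 15 outer annulus or fibroblast markers and 0 of 15 inner annulus or cartilage markers passed the marker criteria. Cthrc1 and Postn encode secreted proteins of wound matrix and Aspn a small proteoglycan of fibrous tissue. This cluster held 315 cells of injured round 2, so 19.7% of them were dividing (15.4 to 24.5%). It held 7 and 3 cells in the controls, none dividing, and 11 in injured round 1, of which 1 was dividing. Of the other 4 dividing cells of injured round 2, 2 lay in an unnamed cluster led by M1ap, Hrct1 and Fmod (2 of 272), 1 in an outer annulus or fibroblast-like cluster led by Myoc and Angptl7 (1 of 88) and 1 in an unnamed cluster led by Krt18 and Krt8 (1 of 34).

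**Figure D2:**
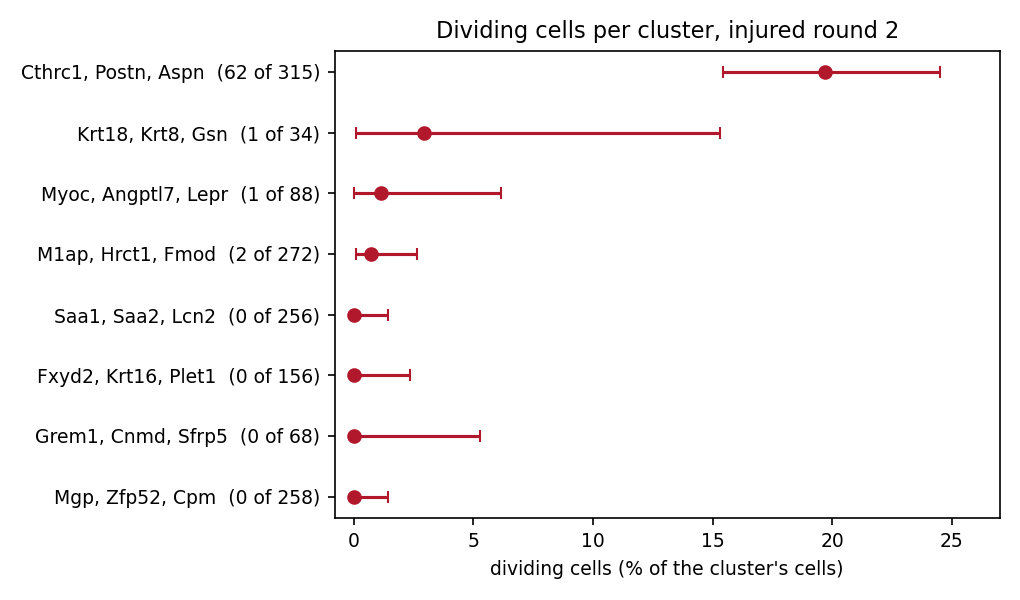
Percentage of dividing cells in each cluster of injured round 2 with at least 20 cells, with exact 95% binomial intervals; labels give the cluster's 3 leading genes and its dividing cells of all its cells. The Cthrc1, Postn and Aspn cluster stands at 19.7%, and 4 clusters held none.

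Between matrix classes, 63 of 403 outer annulus or fibroblast-like cells of injured round 2 were dividing (15.6%, 12.2 to 19.6%) and 0 of 744 inner annulus or cartilage-like cells, which allows up to 0.403% (exact upper limit 0.495%). In injured round 1 the values were 1 of 25 (4%, 0.101 to 20.4%) and 3 of 446 (0.673%, 0.139 to 1.95%). In the controls the outer class held 0 of 36 and 0 of 53 and the inner class 0 of 132 and 1 of 225. The mean difference of outer minus inner share over the 4 libraries was 4.63 points, the same without the shared barcodes (exact two-sided sign flip p = 0.5, where 4 libraries cannot go below 0.125) and was 0.961 points without injured round 2. The difference between classes thus rested on injured round 2. Median UMIs there were 6525 in the outer and 5119 in the inner class, and after thinning to 2000 UMIs the Cthrc1, Postn and Aspn cluster held 20 dividing of 280 cells (7.14%, 4.42 to 10.8%) and the inner clusters 0 of 682. As sums over the 8 genes, outer cells of injured round 2 were at 535 CPM and inner cells at 17.5 CPM, and in injured round 1 the outer cells were at 89.5 CPM (55.4 to 137) and the inner cells at 69.5 CPM (62.7 to 76.9). Control outer cells were at 31.0 and 2.49 CPM and control inner cells at 41.8 and 26.8 CPM. These class sums include the shared barcodes, without which 106 of the 132 inner cells and all 36 outer cells of control round 1 remain. In injured round 1 the intervals of the classes overlapped, and the outer sum of control round 2 was 1 UMI. All these classes are those of the clusters. With classes set by the larger marker score of each cell, injured round 2 held 63 dividing of 645 outer cells (9.77%, 7.59 to 12.3%). Of its 875 inner cells 3 were then dividing (0.343%, 0.0708 to 0.999%).

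Cell by cell, the 15 outer genes outnumbered the 15 inner genes in 64 of the 66 dividing cells of injured round 2, and made up at least 90% of the UMIs of both lists in 60. Their median share was 99.3%, with a lowest value of 19.6% and a highest of 100%. Col1a1, the main chain of type I collagen, was detected in all 66, Col12a1, which decorates collagen fibrils, in 64, Cthrc1 in 57 and Postn in 47. Col12a1 is not one of the 15 outer genes, and Col1a1 alone gave 11998 of the 35170 outer UMIs of these cells. Acan, the large proteoglycan of cartilage, had a UMI in 29 and Col2a1, the type II collagen chain, in 12. Free RNA in the droplets gives such UMIs too. In the 13 endothelial-like cells of this library, which should lack these genes, Col1a1, Col12a1 and Cthrc1 each had a UMI in 1 cell (7.69%), Postn and Acan in none and Col2a1 in 2 (15.4%), at a median of 2469 UMIs against 11751 in the dividing cells. In 18 macrophage-like cells (median 1827 UMIs) Col1a1 had a UMI in 3 (16.7%), Acan in 2 (11.1%) and Col2a1 in 6 (33.3%). Mural-like cells share some of the outer genes, with a UMI of Col1a1 in all 17 and of Postn in 15 (88.2%, at 1029 CPM against 963 CPM in the dividing cells), while Cthrc1 was found in none of them and Col12a1 in 5. In the 744 inner annulus or cartilage-like cells (median 5119 UMIs), Col1a1 had a UMI in 28.8%, at 199 CPM against 15423 CPM in the dividing cells, and Cthrc1 in 1.34%. The 18.2% of dividing cells with a Col2a1 UMI lay between the endothelial-like and macrophage-like shares and is not read as expression, apart from the 4 cells outside the Cthrc1, Postn and Aspn cluster, which held 37 to 476 UMIs of it, and 2 cells of that cluster, which held 20 and 23 UMIs and are the 2 with the highest Scrublet doublet scores among the dividing cells of this library. The part of doublets in these counts was not tested. Acan differed from Col2a1, as its share of 43.9% in dividing cells lay above the endothelial-like and macrophage-like shares. It also lay above the 26.9% of other cells of the Cthrc1, Postn and Aspn cluster, whose median was 6327 UMIs. At 194 CPM Acan was below the 578 CPM of the macrophage-like cells. The parts of depth and of free RNA in its share were not tested. The 2 cells with more inner than outer UMIs were one of the Fmod cluster (651 inner and 462 outer UMIs, 476 of them Col2a1) and the one of the Krt18 cluster (90 inner and 22 outer UMIs).

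The 9 dividing cells of injured round 1 were of mixed identity. By cluster, 3 were inner annulus or cartilage-like, 1 lay in the Cthrc1, Postn and Aspn cluster, 1 was endothelial-like, 1 mural-like and 3 were in unnamed clusters. The endothelial-like cell had 55 UMIs of endothelial list genes, among them 7 of Pecam1 and 3 of Cdh5, and 2 UMIs of outer genes. The mural-like cell had 92 UMIs of Rgs5 and 12 of Notch3, genes of the contractile cells around small vessels, and also 50 UMIs of the endothelial gene Fabp4. The cell in the Cthrc1, Postn and Aspn cluster had 118 UMIs of Col1a1, 12 of Cthrc1 and 6 of Postn. The deepest cell (53885 UMIs) was in an inner cluster led by Ccl7, Mmp12 and Cxcl1 and had 134 UMIs of Mmp3, a matrix-degrading enzyme, with 170 of Col2a1 and 336 of Col1a1. Outer genes made up a median of 72.7% of the outer and inner UMIs in these 9 cells (39.3 to 100%), a lower median than in injured round 2. Outer UMIs exceeded inner UMIs in 7 of the 9, among them 2 of the 3 cells in inner clusters (364 against 289 UMIs and 1831 against 687 UMIs). The 7 and the median also include the endothelial-like cell (2 against 0 UMIs, the value of 100%) and the mural-like cell (430 against 2 UMIs).

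In the controls, 3 of the 4 dividing cells held no UMI of any of the 30 inner and outer genes and lay in a cluster led by Cd74 and other genes of MHC class II antigen presentation, which was macrophage-like by 5 of 12 markers. One cell of each control library had immunoglobulin light chain (7 and 10 UMIs of Igkc) and B cell surface (2 and 3 UMIs of Ms4a1) transcripts, and the third had 24 UMIs of Cd74 and 18 of H2-Ab1 and no Igkc. These 3 met the label of dividing cells but not that of disc cells. The fourth, from control round 2, had 125 UMIs of Col2a1, 104 of Snorc and 58 of Acan, and 490 inner against 3 outer UMIs. Without the MHC class II cluster the controls held 0 of 212 and 1 of 338 dividing cells, the injured libraries 9 of 608 and 66 of 1502, and the difference in mean share was 2.79 points. All 12 genes of the macrophage list were at 0 in the control dividing cells.

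**Figure D3:**
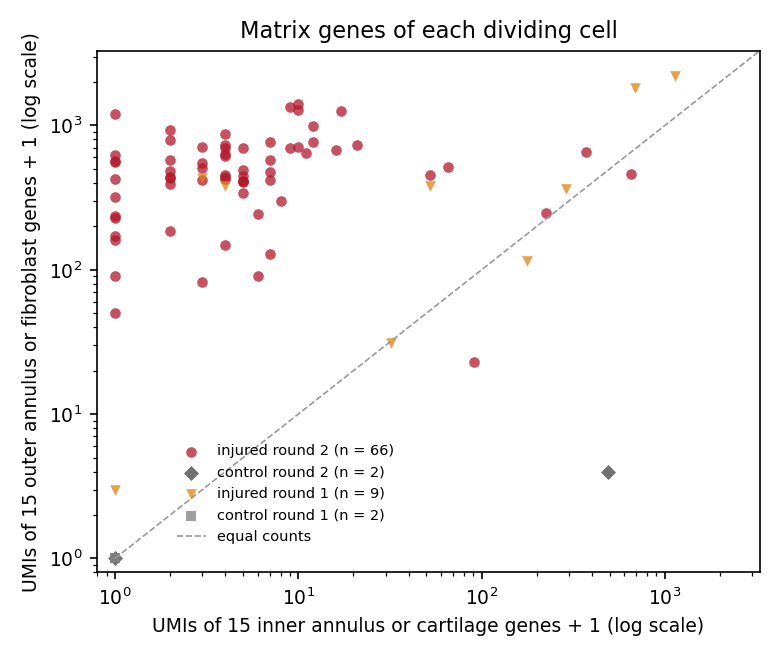
UMIs of 15 outer annulus or fibroblast genes against UMIs of 15 inner annulus or cartilage genes in each of the 79 dividing cells, both plus 1 on log scales, by library. Of the cells of injured round 2, 64 of 66 lie above the line of equal counts, and 3 control cells with no UMI of either list overlap at the lower left.

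Most dividing cells held more UMIs of the G2/M list than of the S list. In injured round 2 the 54 gene G2/M list had a median of 74 UMIs per dividing cell (15 to 286) and the 43 gene S list a median of 15 (1 to 130), and 7 of 66 cells had more S than G2/M UMIs. In injured round 1 the medians were 128 and 42 UMIs and 1 of 9 cells had more S UMIs. None of the 4 control cells did. The rule is built on genes of G2 and mitosis, so this order is fixed in part by the rule. Ccna2, the cyclin of S phase and G2, had a UMI in 43 of 66 cells of injured round 2, Ccnb1, the cyclin of mitotic entry, in 36, and Plk1, a mitotic kinase, in 28. All 8 rule genes were detected together in 20 of 66 cells of injured round 2 and 4 of 9 of injured round 1. Birc5 was found in the most cells of injured round 2 (58) and Ube2c in the fewest (41), although one cell held 15 UMIs of Ube2c.

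**Figure D4:**
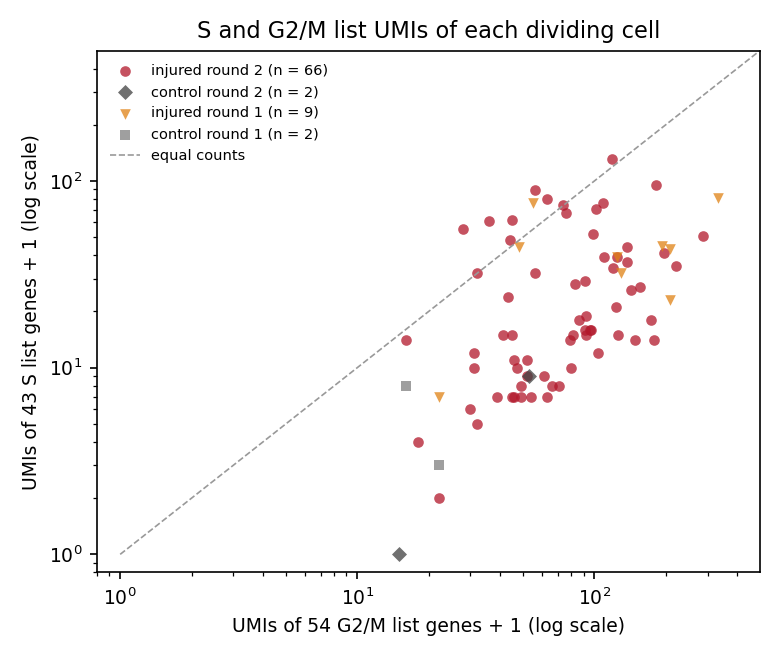
UMIs of 43 S list genes against UMIs of 54 G2/M list genes in each of the 79 dividing cells, both plus 1 on log scales, by library. The cells above the dashed line of equal counts, 7 from injured round 2 and 1 from injured round 1, had more S list than G2/M list UMIs.

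Cell numbers were low and nearly level around the limit of 4 rule genes, with 52 cells at 2 genes, 13 at 3, 16 at 4 and 16 at 5. Just inside it, 16 cells had exactly 4 genes (13 from injured round 2), with a median of 7429.5 UMIs and 43.5 UMIs of the G2/M list, and 13 of the 16 were in the Cthrc1, Postn and Aspn cluster. Just outside, 13 cells had 3 genes (11 from injured round 2), with medians of 6617 and 21 UMIs, and 10 of the 13 were in that cluster. In injured round 2, dividing cells had a median of 11751 UMIs and other cells 5262. Of the 66, 7 had at least 10% mitochondrial UMIs, and 2 were among the cells with the highest Scrublet doublet scores.

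Within the Cthrc1, Postn and Aspn cluster of injured round 2, the 62 dividing and 253 other cells were compared as summed UMIs (697804 against 1890173), which describes 1 library and has no replicate test. Of 8977 genes with at least 20 UMIs, 528 (5.88%) were at least 2-fold higher in dividing cells and 479 (5.34%) at least 2-fold lower, with a median log2 CPM ratio of 0.04. Genes of chromosome segregation were higher as whole groups, which the choice of cells by such genes fixes in part. All 12 spindle and cytokinesis genes were at least 2-fold higher (median log2 ratio 4.19), as were all 12 kinetochore genes (3.53), all 4 chromosomal passenger genes (3.50) and all 7 condensin genes (3.02). Without the rule genes in these lists the counts were 10 of 10, 11 of 11, 3 of 3 and 7 of 7. The rule gene Ube2c was at 261 CPM in dividing and 3.17 CPM in other cells of the cluster. Outside the rule, Kif4, a chromosome-bound motor, was 35.2-fold higher (11.2 to 178), Aurkb, the kinase of the passenger complex, 17.0-fold (7.61 to 44.8) and Ncapg, a condensin subunit, 25.1-fold (37 against 4 UMIs). Intervals here are exact 95% conditional intervals for counting error.

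Genes of DNA replication had lower ratios. Of the 12 replication licensing genes with enough UMIs, 11 were at least 2-fold higher, with a median log2 ratio of 1.39, and of 37 S list genes 28 were, with a median of 1.40. Mcm2, a subunit of the replicative helicase, was at 45.9 against 13.8 CPM (3.33-fold, 1.92 to 5.82), and Cdc45, which activates that helicase, at 27.2 against 4.76 CPM (5.72-fold, 2.47 to 14.4). Of 52 G2/M list genes, 49 were at least 2-fold higher, with a median of 3.48, and without the rule genes 42 of 45, with a median of 3.19. The cells were chosen by genes of G2 and mitosis, so the order of the 2 lists is fixed in part by the rule. Among the 6 APC/C genes 5 were at least 2-fold higher, including the rule gene Ube2c and Cdc20, its mitotic activator, the latter at 132 against 14.8 CPM. Pttg1 (securin), which the APC/C degrades at anaphase, was the exception at 37.3 against 56.6 CPM (ratio 0.658, 0.411 to 1.02).

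Cyclins and CDK inhibitors differed in both directions. Of 15 with enough UMIs, 8 were at least 2-fold higher and 3 at least 2-fold lower. Ccnb1 was at 118 against 4.76 CPM (24.7-fold, 12.4 to 55.9) and Ccna2 at 129 against 6.88 CPM (18.8-fold, 10.4 to 36.6), while the G1 cyclin Ccnd2 was at 44.4 against 124 CPM (ratio 0.357, 0.237 to 0.521). Cdkn1a (p21), a CDK inhibitor induced by p53, was at 67.4 CPM in dividing and 174 CPM in other cells of the cluster (ratio 0.387, 0.279 to 0.526). Cdkn1c (p57) was also lower, at 8.60 against 32.3 CPM (ratio 0.266, 0.0941 to 0.614). Other inhibitors were higher in dividing cells: Cdkn2c (p18) at 94.6 against 13.8 CPM, Cdkn2d (p19) at 88.9 against 16.9 CPM and Cdkn3, a phosphatase of Cdk1 and Cdk2, at 87.4 against 21.7 CPM. Cdkn1a was low in the dividing cells of injured round 1 as well, at 376 against 1337 CPM in the other cells of that library. Ccnd2 was at 140 against 160 CPM there (ratio 0.873, 0.582 to 1.26) and Cdkn1c at 14.5 against 7.18 CPM, from 3 UMIs (ratio 2.02, 0.401 to 6.28).

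**Figure D5:**
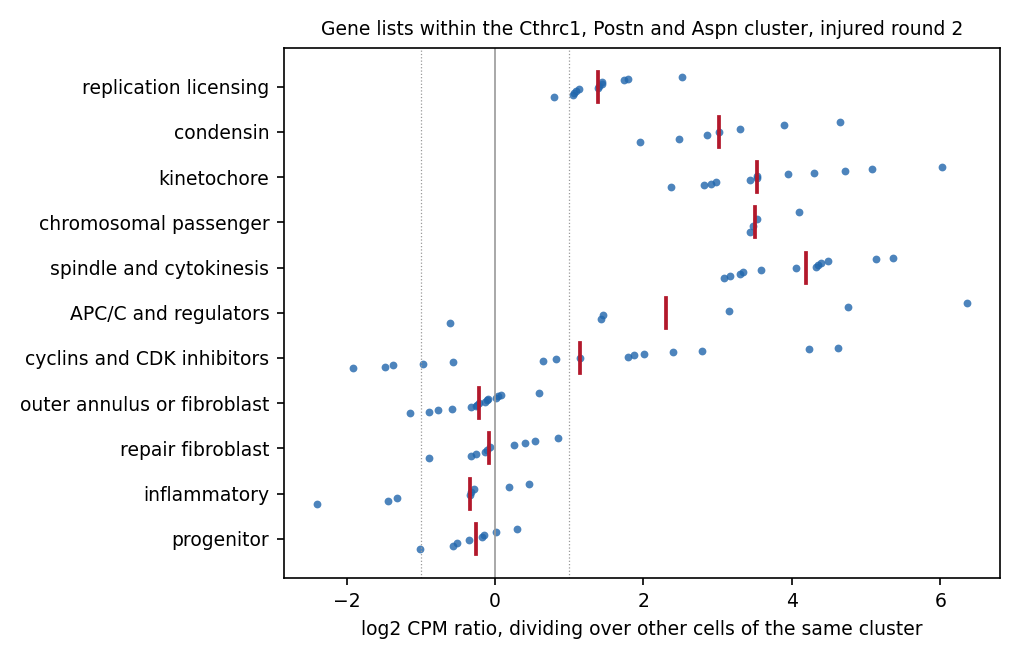
The log2 CPM ratio of dividing over other cells within the Cthrc1, Postn and Aspn cluster of injured round 2, 1 point per gene with at least 20 UMIs, by gene list; red bars are list medians and dotted lines mark 2-fold. Segregation lists lie to the right, with medians of 3.02 to 4.19, and the outer annulus, repair fibroblast, inflammatory and progenitor lists have medians of -0.33 to -0.09.

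The outer annulus and repair fibroblast genes of the cluster were at close to the same level in its dividing cells. Cells were placed in the cluster by expression of genes such as these, so this closeness is fixed in part by the clustering. None of the 15 outer genes was at least 2-fold higher and 1 was at least 2-fold lower (median log2 ratio -0.22), against 5.88% and 5.34% of all genes, and of the 10 repair fibroblast genes none passed 2-fold in either direction (median -0.09). Col1a1 was at 16808 CPM in dividing and 20123 CPM in other cells of the cluster (ratio 0.835, 0.818 to 0.853) and Postn at 1073 and 1159 CPM (0.926, 0.851 to 1.01). Aspn was further down at 653 against 1215 CPM (0.538, 0.485 to 0.595). Tnc, a wound matrix glycoprotein, was at 664 against 504 CPM (1.32, 1.18 to 1.47) and Acta2, the smooth muscle actin of contractile fibroblasts, at 146 against 80.9 CPM (1.81, 1.39 to 2.34). Tnmd, a tendon gene, was the outer gene past 2-fold, at 14.3 against 31.7 CPM. The inner annulus genes, which are low in this cluster, had a median log2 ratio of -0.91 over 8 genes, 2 of them at least 2-fold lower. Of 8 progenitor genes none was at least 2-fold higher and 1 lower, Thy1 at 31.5 against 63.5 CPM. The cells were not equally deep, with a median of 11608 UMIs in dividing and 6327 in other cells, and the part of depth in these ratios was not tested.

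Outside the cell cycle lists, the 10 genes per direction with the highest and lowest ratios in the cluster were taken from those on the same side in injured round 1. On the higher side, the highest ratio was that of Dqx1, with 45 UMIs in dividing and 1 in other cells, but all 45 came from 2 cells. Hist1h1b, a linker histone, had 69 UMIs in dividing and 2 in other cells, and Hist1h2ap and Hist1h2ae 450 against 32 and 215 against 16, but histone genes are near-identical copies and their reads can be split between them. Pbk, a mitotic kinase, had 80 against 6 UMIs, Aspm, a spindle pole protein, 76 against 7, and Troap, a spindle-associated protein, 25 against 1. On the lower side, Myoc had 2 against 125 UMIs (ratio 0.0433), Clec3b 91 against 1322 (0.186) and Chil1 1 against 49. Serpina3n, a protease inhibitor of the acute phase, had 0 against 46 UMIs, a ratio of at most 0.177 with 3 counts in place of 0. Myoc and Clec3b were among the 10 leading genes of the other outer annulus or fibroblast-like cluster.

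Against all other cells of injured round 2, the dividing cells had little of the inflammatory and cartilage genes of that library. Of 11497 genes with at least 20 UMIs, 1614 (14%) were at least 2-fold higher and 1284 (11.2%) at least 2-fold lower, and when libraries were scaled by the median gene ratio (RLE), which shifts all ratios by 0.28 on the log2 scale, the counts were 1049 and 1824. Of 10 inflammatory genes 9 were at least 2-fold lower and none higher (median log2 ratio -2.78). Lcn2, an iron-binding acute phase protein, was at 47.6 against 1487 CPM, Cxcl2, a neutrophil chemokine, at 77.1 against 1950 CPM and Mmp3 at 235 against 1103 CPM. Of 14 inner annulus genes 13 were at least 2-fold lower (median -2.84), with Acan at 194 against 1765 CPM and Sox9, the cartilage transcription factor, at 139 against 1025 CPM. Of 15 outer genes 8 were at least 2-fold higher and 1 lower, Dcn at 3202 against 10740 CPM. Within the Cthrc1, Postn and Aspn cluster the inflammatory list had a median of -0.33 and 3 of 8 genes at least 2-fold lower, and the inner list 2 of 8, where 5.34% of all genes of the cluster comparison were that much lower. All other cells of this library also held the clusters of other identities, and the part of cluster makeup in the wider ratios was not tested.

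Injured round 1 gave the same side for the inflammatory list and another picture for cartilage genes. There 8 of 10 inflammatory genes were at least 2-fold lower in the 9 dividing cells than in the other 604 (median -2.12), where 1087 of 10533 genes (10.3%) were that low. Lcn2 was at 91.7 against 1725 CPM and Mmp3 at 729 against 5236 CPM. Of 14 inner genes 4 were at least 2-fold lower and 2 higher (median -0.06), and of 10 repair fibroblast genes 8 were at least 2-fold higher, against 14.6% of all genes. Cthrc1 was at 62.7 against 4.94 CPM, and 12 of its 13 UMIs came from 1 cell. All 20 Postn UMIs and all 24 Aspn UMIs came from the mural-like cell and the cell of the Cthrc1, Postn and Aspn cluster, and 1144 of the 1951 Col1a1 UMIs came from 1 cell of the Fmod cluster. The count of 8 thus rests in part on 2 or 3 of the 9 cells.

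The comparison of dividing with other cells was also tested with edgeR over all 4 libraries, with library as a block, although 1 library held 66 of the 79 cells and 3 of the 4 control cells were immune in their transcripts. It called 704 of 8566 genes (8.22%), 367 higher (4.28%) and 337 lower (3.93%). Without injured round 2 it called 95, and without control round 1 (whose dividing cells are both shared barcodes) 622. In the injured libraries alone it called 1119 of 11222 (9.97%), 507 higher (4.52%) and 612 lower (5.45%). These counts include rule and cell cycle genes, whose rise the choice of cells fixes in part. Outside those lists it called 279 higher and 336 lower of 8444 over 4 libraries. In the injured libraries alone it called 407 higher and 610 lower of 11087 outside them. Of the 10 inflammatory genes 7 fell and none rose, and in the injured libraries alone 9 fell. Lcn2 changed by -4.99 ± 1.15 on the log2 scale (SE, edgeR adjusted p = 0.00052) and Saa3, an acute phase protein, by -4.91 ± 0.80 (adjusted p = 6.07e-08). Of the 15 outer genes 1 rose and 1 fell over 4 libraries, and 8 rose and 1 fell in the injured libraries alone. The 8 were collagen and wound matrix genes with Thbs4, and the gene that fell was Dcn (-1.50 ± 0.26). Among the outer genes not called there were Scx (0.03), Mkx (-0.37), Tnmd (-0.51) and Col6a1 (-0.30). Of the 15 inner genes 1 rose and 2 fell over 4 libraries, and 9 of the 14 tested in the injured libraries alone fell. Cthrc1 rose in both edgeR fits, by 2.65 ± 0.82 (adjusted p = 0.0197) and by 2.31 ± 0.34 (adjusted p = 1.94e-07). In injured round 1, however, 1 dividing cell held 12 UMIs of Cthrc1, nearly all of those found there. Both values thus rest mostly on injured round 2, the only library with at least 10 dividing cells. Prrx1, a mesenchymal transcription factor, also rose in both fits, by 1.90 ± 0.54 (edgeR adjusted p = 0.00865) over 4 libraries. Col1a1 was at -1.35 ± 1.13 over 4 libraries (adjusted p = 0.613) and at 0.97 ± 0.25 in the injured libraries alone (adjusted p = 0.00374), the control dividing cells holding 0 UMIs of it.

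Of the genes that edgeR called over 4 libraries, 615 lay outside the rule and cell cycle lists, 279 of them higher and 336 lower, and 16 of the higher and 293 of the lower had the same sign in every library. The dividing cells of the controls held 2401 and 6506 UMIs in all, so most genes were at 0 there, and such genes count as lower in the controls whatever their level, which weighs on the 293. Of the 10 largest rises with the same sign in every library, those of the mitotic genes Sgo2a and Aspm go with the choice of cells and are given as values. Sgo2a, a guardian of centromere cohesion, was at 19.3 against 0.957 CPM in injured round 1 and at 65.6 against 0.964 CPM in injured round 2, and rested on 1 UMI in each control library. Aspm was at 62.7 against 3.19 CPM in injured round 1 and at 102 against 1.82 CPM in injured round 2. Lmnb1, a nuclear lamin, had 9 and 76 UMIs in the dividing cells of the injured libraries. The 10 also held Cnn2, an actin-binding calponin (log2 fold change 2.15 ± 0.50 in edgeR, adjusted p = 0.000645), Ly6e, a surface protein (1.86 ± 0.50, adjusted p = 0.00498), and Basp1, a membrane-bound signalling protein (1.71 ± 0.40, adjusted p = 0.000658). Ly6e was at 150 against 24.4 CPM in injured round 1 and at 174 against 57.0 CPM in injured round 2. In the control dividing cells of rounds 1 and 2, Ly6e had 2 and 1 UMIs, Cnn2 3 and 1 and Basp1 3 and 2. The largest falls were of genes with 0 UMIs in the dividing cells of every library, where the fitted value is no measure of size. Mmp12, an elastase, had 0 UMIs in dividing cells against 154 CPM in other cells of injured round 1 and 17.8 CPM in those of injured round 2, ratios of at most 0.0942 and 0.217. Sprr1a, Hs3st1, Frzb, a WNT inhibitor of cartilage, and Ackr2 were likewise at 0 in all 79 cells.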

How the data were processed

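Droplet single cell RNA sequencing (10x Genomics, v3 kit, per the labels) was analysed for 2 control and 2 injured libraries. The deposited files hold whole UMI counts for each gene and barcode. Per the file headers, Cell Ranger 6.0.0 wrote the matrix of control round 1 and Cell Ranger 4 the others, and the build was mm10, per the submitters' processing notes. No normalization was applied before deposit. The members and gene lists were chosen with earlier results of these data known. Cells were the barcodes named by the rule, with no mitochondrial filter. Doublets were treated in an alternative that left out the highest Scrublet scores. Clusters used 2000 variable genes, 30 principal components, 20 neighbours and Leiden resolution 1 (scanpy 1.11.5), without 139 cell cycle and rule genes, and were named by at least 3 detected markers. A marker was detected in at least 25% of cells at 1.2 times the level elsewhere. CPM is computed from summed counts. A floor of 3 counts stands in for 0 in folds.

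Sums per library were tested with edgeR 4.0.16 (quasi-likelihood, TMM, default filter, Benjamini-Hochberg adjustment over all genes tested), with DESeq2 1.42.0 as an alternative, and the scripts were tested on simulated counts. Libraries with at least 10 dividing cells were to enter the test of dividing against other cells. As 1 did, CPM ratios are given as values and the fit over 4 libraries is an alternative. Named genes are the rule genes, list members and the 10 per direction of largest change outside the cell cycle lists. With no test these had to be past 2-fold, have at least 20 UMIs and lie on the same side in injured round 1. In the edgeR fit they had an adjusted p under 0.05, the same sign in every library and at least 20 UMIs. Rounds pair the libraries because control and injured discs came from the same animals, per the labels, and deviations of same-round libraries from their group means correlated at 0.51 over 9665 genes. Gene starts and promoters are from RefSeq, GRCm38.p6.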

Additional observations from a re-analysis of the deposited data

How the results depend on the processing

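Counting cells with at least 6 S list genes in place of the 8 gene rule gave a difference in share of 15.8 points, with 34.4% of cells in injured round 1, the deepest library per cell. Leaving out 1 library each gave differences in share of 0.710 to 3.58 points, and 0.909 to 1.64 points after thinning. Thinning to 1000 or 4000 UMIs gave 0.302 and 2.18 points. The other 7 alternatives for the share, with 3 or 5 rule genes, other gene minimums, a mitochondrial limit, no shared barcodes or no high Scrublet scores, gave 1.98 to 3.04 points, and leaving shared barcodes out of both round 1 libraries (chosen after seeing the data) gave 2.37 points. Leaving out the shared barcodes, chosen after seeing the data for these values, moved neither the thinned difference of 1.27 points nor the outer minus inner difference of 4.63 points. Outer minus inner share was 2.33 to 5.38 points under other class definitions and 0.961 to 6.32 points with 1 library left out. Genes past 2-fold outside the cell cycle lists in injured round 2 numbered 2778, 1136 against outer cells alone and 896 within the Cthrc1, Postn and Aspn cluster (chosen after seeing the data). Injured against control, edgeR called 0 genes, 623 with the replicate block, 306 without a filter on low counts and 56 to 207 with 1 library left out, and DESeq2 called 133. Dividing against other cells over libraries, edgeR called 704, 370 with no replicate block, 1119 in the injured libraries alone and 95 to 735 with 1 library left out. Rule and cell cycle genes are included in these counts. The 8 rule genes kept a positive log2 fold change under every alternative in which they were tested. These alternatives reuse the UMIs that stand behind the shares of dividing cells, so the common sign is no independent support. DESeq2, left-out libraries and removal of shared barcodes were not run for the ratios within 1 library, and a test of injured against control within dividing cells was not run, since 3 of the 4 libraries held under 10. Depth limits the controls, where 3 shallow cells make up most of the dividing cells.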

Other observations

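Some values of single genes in the dividing cells rested on few cells. Trbc2, a T cell receptor constant gene, had 17 UMIs in 8 dividing cells of injured round 2, 10 of them in 1 cell, while Cd3d, Cd3e, Cd3g, Trac and Nkg7 were at 0 there. Cdkn2a, a senescence-linked CDK inhibitor, was at 19.3 CPM in the dividing cells of injured round 1 against 0.159 CPM in the other cells of that library, and at 1.29 against 1.82 CPM in injured round 2.

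Of 11 progenitor genes with at least 20 UMIs, 3 were at least 2-fold higher in the dividing than in all other cells of injured round 2, 1 was lower and 7 were neither, where 14% of all genes were that much higher. The 3 were Prrx1 (219 against 64.2 CPM), Pdgfra (257 against 79.1 CPM) and Cd34 (153 against 53.8 CPM), and the lower one was Lepr, with 0 UMIs. In injured round 1, 6 of 11 were at least 2-fold higher, against 14.6% of all genes. The dividing cells there included 1 endothelial-like and 1 mural-like cell. Of the endothelial list 3 of 7 genes, and of the mural list 3 of 6, were also at least 2-fold higher there. The part of cell makeup in the progenitor count was not tested. Within the Cthrc1, Postn and Aspn cluster of injured round 2 none of 8 progenitor genes was at least 2-fold higher. Prrx1 was at 242 against 240 CPM, Pdgfra at 274 against 223 CPM and Cd34 at 171 against 244 CPM.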
